A study of Mus musculus with 6 samples.

Results

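MHC class II genes were examined in 3 mouse T cell leukemias. The 8 genes were H2-Aa, H2-Ab1, H2-Eb1, Cd74, H2-DMa, H2-Oa, H2-Ob and Ciita, of 19938 genes with a probe set that names 1 gene. They were chosen by symbol, with their levels on these arrays and the differences among the leukemias already known. Differences of these genes among leukemias are therefore given below as a description, without a test. Where a gene has several probe sets the rule takes the one with the highest mean, but each of these genes had 1, so no value decided between probe sets. All 8 passed the filter on dim genes, a mean log2 intensity of at least 6.70, which left 13956 genes for testing. None passed it only through its brightest leukemia, since the lowest mean of any of them in a line, that of H2-Aa in line 14843, was 6.78. Of the 8 genes, 6 lie on chromosome 17, Cd74 on chromosome 18 and Ciita on chromosome 16, per the RefSeq table.

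MHC class II molecules display peptides from endocytosed proteins to CD4 T cells. An alpha and a beta chain form the peptide groove, the invariant chain guards it until it is cut away in endosomes, and H2-DM then exchanges the remaining fragment for peptide under the control of H2-DO. In mice, professional antigen-presenting cells such as B cells, dendritic cells and macrophages carry these molecules, while mouse T cells are known for having little or none. Transcription depends on the coactivator Ciita, which is recruited by factors bound to the X and Y boxes of class II promoters.

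Each of 3 independently made leukemias, lines 14843, 14844 and 14846, gave 1 array labelled Tamoxifen and 1 labelled Vehicle. All had arisen from hematopoietic progenitors with a tamoxifen-inducible Cre-ER transgene and the conditional Zfx fl/y allele, transduced with a retrovirus for Notch-IC, the active part of Notch. The Tamoxifen arrays, whose genotype is labelled ZFX null, came from secondary recipients given 5 mg by gavage daily for 3 days, and the Vehicle arrays, labelled ZFX flox, from recipients of the carrier. Dosing began 10 days after transplant, and 48 h after it ended the GFP-positive cells were isolated. Cre-ER and the floxed allele were thus present in both groups, and no Tamoxifen group lacked either of them. The recipients had been sublethally irradiated and kept blood cells of their own. The sources used here do not give the organ sorted, the promoter of the transgene or the ages of the mice. Separate mice stood behind the arrays of a line, but with 1 array for each line and treatment the spread between mice of 1 line and treatment was not measured.

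Arrays correlated at 0.991 to 0.996 over all probe sets. The single Zfx probe set read 10.96, 10.98 and 10.86 log2 intensity on Tamoxifen arrays of lines 14843, 14844 and 14846, against 10.98, 10.90 and 10.71 on Vehicle arrays. The position of its probes relative to the deleted part is not known here, so it checks no label, and groups are named as labelled. Of 17 T cell markers 15 were measured and all were above the filter. Cd3e, for instance, lay between 13.11 and 13.27, as fits cells labelled T-ALL.

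The chains of the peptide groove differed in how they varied. H2-Aa encodes the alpha chain of the I-A molecule. It read 6.68, 7.06 and 7.80 log2 intensity on Tamoxifen arrays of lines 14843, 14844 and 14846, against 6.88, 6.95 and 8.19 on Vehicle arrays. Both arrays of line 14846 were the highest, while those of the treatments overlapped. The mean was 7.99 ± 0.28 in line 14846, against 6.78 ± 0.14 in line 14843 (SD, n = 2 arrays each, 1 of each treatment), with line 14844 between them. Line 14846 stood 1.10 above the mean of the other lines, and the arrays of line 14844 lay above both of line 14843. One array, Tamoxifen in line 14843, lay below 6.70. In these bulk samples fewer cells with a transcript and less of it per cell cannot be told apart.

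H2-Ab1 encodes the beta chain that pairs with H2-Aa, and its pattern was another. It read 7.15, 7.85 and 7.72 on Tamoxifen arrays of lines 14843, 14844 and 14846, against 7.98, 8.18 and 7.64 on Vehicle arrays. Line 14846 was not high, at 7.68 ± 0.06, against 8.01 ± 0.23 in line 14844 and 7.57 ± 0.59 in line 14843 (SD, n = 2 each). The line means spanned 0.45, less than the SD between the arrays of line 14843. The lowest array was Tamoxifen in line 14843 and the highest Vehicle in line 14844.

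H2-Eb1, the beta chain of the I-E molecule, varied little. Its levels were 8.35, 8.48 and 8.63 on Tamoxifen arrays of lines 14843, 14844 and 14846 and 8.43, 8.41 and 8.63 on Vehicle arrays. Line 14846 was again highest on both arrays, but by 0.21 above the mean of the other lines.

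Cd74, the invariant chain, followed H2-Aa. It read 7.20, 7.55 and 8.09 on Tamoxifen arrays of lines 14843, 14844 and 14846, against 7.28, 7.43 and 8.28 on Vehicle arrays. The order of the lines was 14846, 14844 and 14843 under both treatments, at 8.18 ± 0.13, 7.49 ± 0.09 and 7.24 ± 0.06 (SD, n = 2 each). The arrays of different lines did not overlap, and line 14846 stood 0.82 above the mean of the others.

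H2-DMa, H2-Oa and H2-Ob encode chains of H2-DM and of H2-DO, which controls it, and for these the lines overlapped more. H2-DMa, a chain of the peptide exchange factor, read 10.38, 10.16 and 10.15 on Tamoxifen arrays of lines 14843, 14844 and 14846, against 9.54, 9.79 and 10.55 on Vehicle arrays. The Tamoxifen arrays lay close together, with an SD of 0.13, whereas the Vehicle arrays spanned about a log2 unit, with an SD of 0.53. The highest and the lowest of the 6 arrays were both Vehicle, in lines 14846 and 14843.

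H2-Oa, the alpha chain of H2-DO, read 10.70, 10.37 and 10.44 on Tamoxifen arrays of lines 14843, 14844 and 14846, against 10.37, 10.42 and 11.00 on Vehicle arrays. Only the Vehicle array of line 14846 and the Tamoxifen array of line 14843 stood out, both upward. H2-Ob, its beta chain, read 8.12, 7.44 and 7.72 on Tamoxifen arrays against 7.56, 7.17 and 7.45 on Vehicle arrays of the same lines. Its line order, 14843, 14846 and 14844, held under both treatments. It differed from that of H2-Aa and Cd74.

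Ciita, the coactivator, was the most even of the 8. It read 7.29, 7.18 and 7.24 on Tamoxifen arrays of lines 14843, 14844 and 14846, against 7.21, 7.14 and 7.24 on Vehicle arrays. The highest and the lowest array differed by 0.15, and the line means by 0.09. Its levels were close to the filter on dim genes, at 6.70, where a difference in transcript could go unseen. The line order of Ciita was not that of H2-Aa or Cd74, and line 14846 stood 0.03 above the mean of the others.

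**Figure D1:**
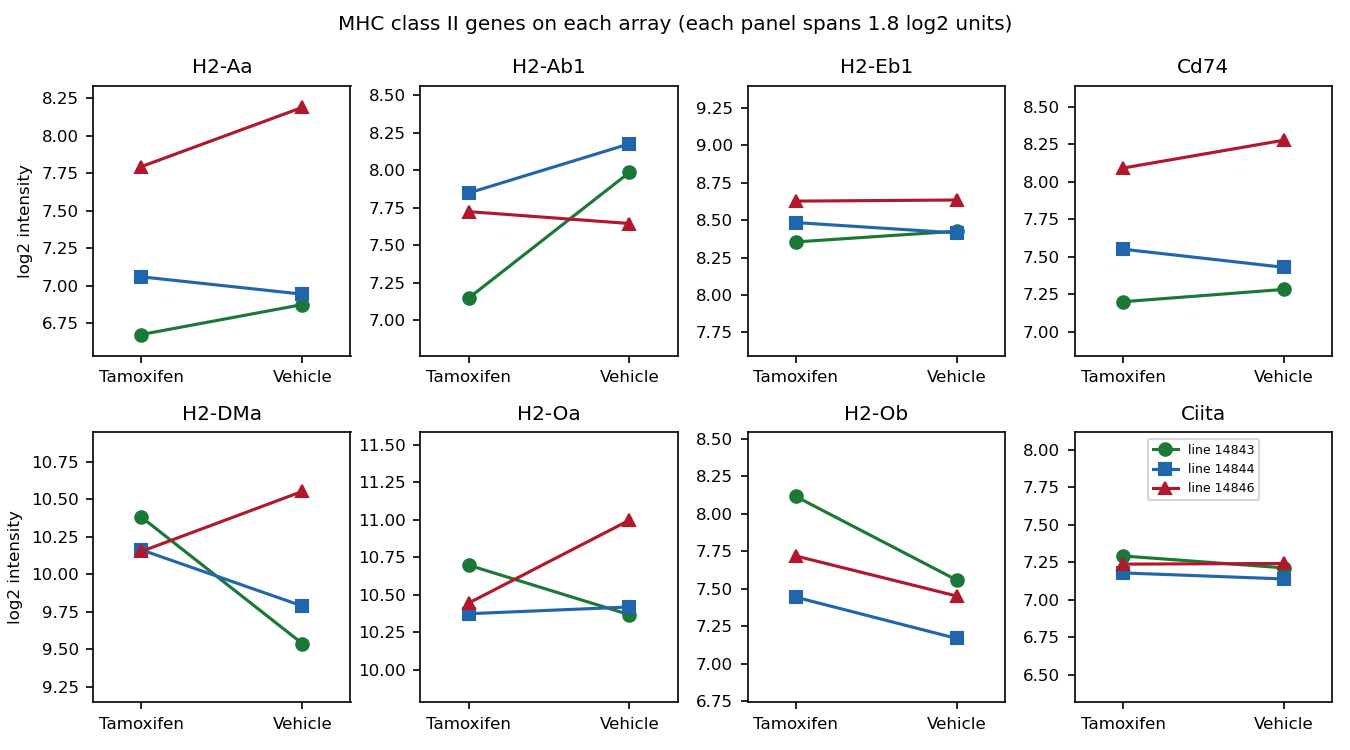
Log2 intensity (vertical axis, 1 panel per gene, all panels of equal span) of the 8 MHC class II genes on the Tamoxifen and Vehicle arrays, with a line joining the arrays of each leukemia. The line 14846 points lie above the others for H2-Aa, Cd74 and H2-Eb1, while the Ciita points lie within 0.15 of each other.

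Across the 8 genes, the median gap between the highest and the lowest line was 0.42 on the log2 scale, beside 0.14 over all 13956 tested genes. The genes were chosen with such gaps known, and this one is given for scale. For 3 of the 8, namely H2-Aa, H2-Eb1 and Cd74, both arrays of line 14846 lay above the other 4 arrays. The same held for 10.6% of tested genes. Line 14846 also had the highest mean for H2-DMa and H2-Oa, but through its Vehicle array, at 10.55 and 11.00. On Tamoxifen arrays line 14846 was the lowest for H2-DMa, at 10.15. For H2-Oa it was below line 14843 there, at 10.44 against 10.70.

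Promoter windows, from 250 bases before to 50 after a RefSeq gene start, were found for H2-Aa, H2-Eb1, H2-DMa, H2-Oa and H2-Ob. They were searched on both strands for the core letters GCAAC, as in the X box, and GATTGG, as in the Y box. These letters, which do not overlap, were chosen after the windows had been read. The windows of H2-Aa, H2-Eb1, H2-Oa and H2-Ob held GCAAC followed by GATTGG, 24 to 27 bases apart. Of all 32851 promoter windows, 35.2% held GCAAC, 16.1% held GATTGG and 0.365% held the first followed by the second at 15 to 35 bases. Both H2-DMa windows lacked that arrangement. The last 100 bases before the start are shown for the 4 genes, because a like pair of boxes stood before genes whose levels did not move together. GCAAC and GATTGG are in capitals, and the sequences are RefSeq's, build GRCm38.p6, each on the gene's own strand.
H2-Aa, chr17:34287824-34287923, minus strand: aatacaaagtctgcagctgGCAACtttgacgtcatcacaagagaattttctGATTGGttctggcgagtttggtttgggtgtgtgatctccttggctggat
H2-Eb1, chr17:34305767-34305866, plus strand: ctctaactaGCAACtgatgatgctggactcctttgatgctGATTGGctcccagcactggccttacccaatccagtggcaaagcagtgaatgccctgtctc
H2-Oa, chr17:34092279-34092378, plus strand: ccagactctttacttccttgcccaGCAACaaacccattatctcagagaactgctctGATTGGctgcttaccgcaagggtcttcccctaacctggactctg
H2-Ob, chr17:34238805-34238904, plus strand: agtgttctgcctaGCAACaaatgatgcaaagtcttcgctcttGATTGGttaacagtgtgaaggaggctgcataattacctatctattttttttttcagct
A match of letters is a description of the sequence, and binding of any factor was not measured.

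Tamoxifen arrays were set against Vehicle arrays to ask how expression differs after deletion of Zfx is induced. None of the 8 class II genes was called changed, at a limma adjusted p under 0.05 in a fit over all tested genes with line as a block. At an unadjusted p under 0.05 there was 1, H2-Ob. Over all tested genes 870, or 6.23%, were called, 1.3% higher and 4.93% lower, and 23.8% had an unadjusted p under 0.05. The median difference was -0.03 for the 8 genes, beside 0.03 over all tested genes, and it turned to 0.040 without line 14846. Treatment groups did not overlap for 0 of the 8, beside 23.7% of tested genes.

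H2-Ob came closest to the threshold. It was higher on the Tamoxifen array in each of the 3 lines, by 0.56, 0.28 and 0.27 in lines 14843, 14844 and 14846. The groups nonetheless overlapped, since the lines differ in level. The fit gave 0.37 ± 0.08 (SE), a 1.29-fold ratio. Its limma adjusted p was 0.055, with a 95% interval from 0.18 to 0.56 without adjustment. With the trend and robust settings of eBayes the adjusted p was 0.036, which makes it a call, while without line as a block it was 0.40. It was the only one of the 8 to differ the same way in every line, and 48.8% of tested genes did so.

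The groove chains and the invariant chain gave no call. H2-Aa differed by -0.16 ± 0.10 (SE), with a 95% interval from -0.42 to 0.10. H2-Ab1 differed by -0.36 ± 0.17, with an interval from -0.78 to 0.06 and an adjusted p of 0.26. Within lines 14843, 14844 and 14846, H2-Ab1 differed by -0.84, -0.33 and 0.08, so the largest part came from line 14843. Cd74 differed by -0.05 ± 0.07 and H2-Eb1 by 0.00 ± 0.05 in size, with intervals from -0.23 to 0.13 and from -0.14 to 0.13. The intervals bound the size of a difference and do not show that there was none.

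H2-DMa and H2-Oa differed between lines in the sign of the treatment difference. H2-DMa was 0.84 and 0.37 higher on the Tamoxifen array in lines 14843 and 14844, but lower in line 14846, at -0.40. H2-Oa differed by 0.33, -0.04 and -0.55 in lines 14843, 14844 and 14846. The fitted differences were 0.27 ± 0.22 (SE) for H2-DMa and -0.09 ± 0.16 for H2-Oa, with limma adjusted p-values of 0.50 and 0.77. Both turned sign with a line left out. Without line 14843 H2-DMa gave -0.013, at an adjusted p of 0.98, and H2-Oa -0.30, at 0.29. Without line 14846 they gave 0.61, at 0.060, and 0.14, at 0.49. Ciita differed by 0.04 ± 0.05, with an interval from -0.09 to 0.17.

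**Figure D2:**
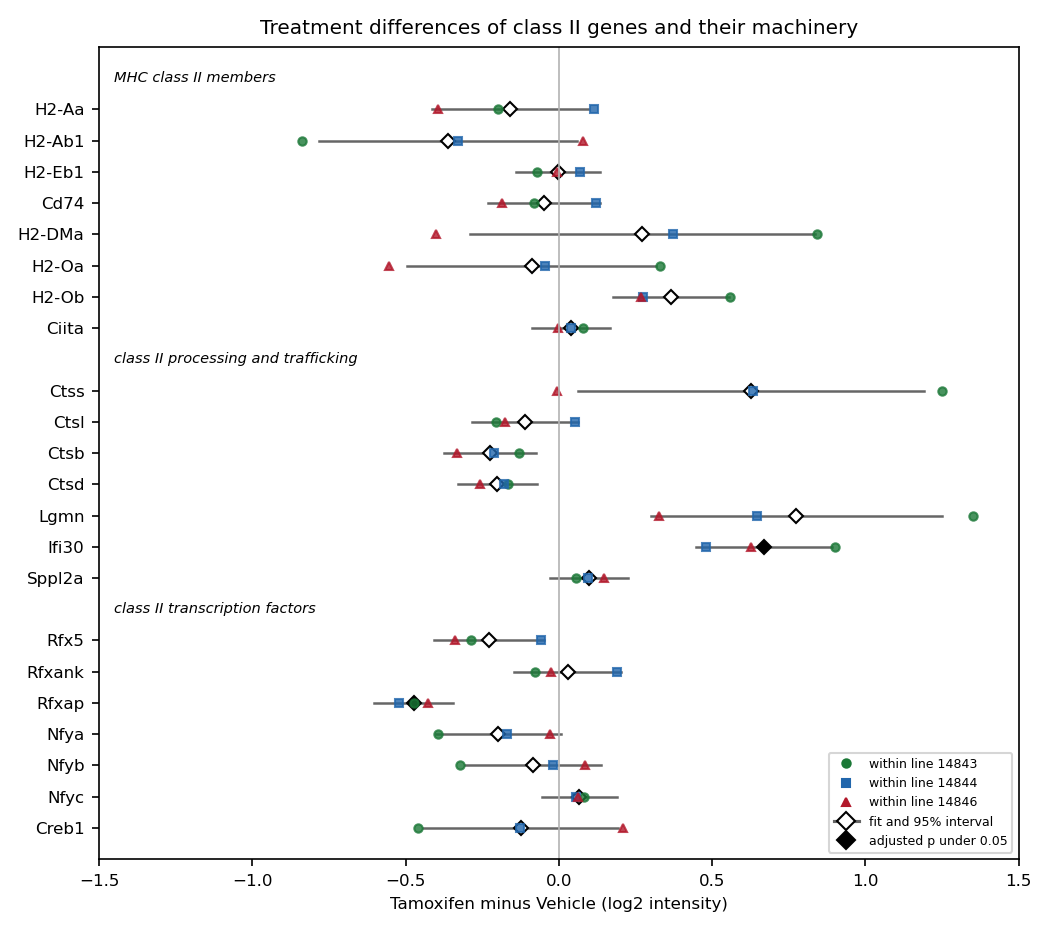
Tamoxifen minus Vehicle difference in log2 intensity (horizontal axis) for the class II genes, their processing machinery and their transcription factors. Coloured points are the differences within each line, diamonds and bars the limma fit with its unadjusted 95% interval, and filled diamonds the genes called changed. Ifi30 lies above 0 and Rfxap below 0 in all 3 lines, and none of the 8 class II genes is filled.

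Genes that prepare peptides for class II held 1 call. Of 11 genes of class II processing and trafficking 7 were tested. Of these 1 was called higher and 0 lower, beside 1.3% and 4.93% of all tested genes, and 5 had an unadjusted p under 0.05, beside 23.8%. Their median difference was 0.10. Ifi30, the thiol reductase that unfolds antigens in lysosomes, rose in Tamoxifen arrays. It read 10.68, 10.59 and 9.77 log2 intensity on Tamoxifen arrays of lines 14843, 14844 and 14846, against 9.78, 10.11 and 9.15 on Vehicle arrays. Each line was higher with Tamoxifen, while the groups overlapped because line 14846 was low. The fit gave 0.67 ± 0.09 (SE), a 1.59-fold ratio, at an adjusted p of 0.019 by limma. The call was lost without the block, at an adjusted p of 0.38, and without line 14844, at 0.076.

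Lgmn and Ctss, endosomal proteases that cut antigen and the invariant chain, had similar patterns. Lgmn read 9.59, 9.78 and 10.16 on Tamoxifen arrays of lines 14843, 14844 and 14846, against 8.24, 9.14 and 9.83 on Vehicle arrays. Ctss read 8.69, 8.93 and 9.03, against 7.44, 8.29 and 9.04. For both genes the Vehicle array of line 14843 was the lowest, and the treatment difference was greatest in that line and smallest in line 14846. The fitted differences were 0.77 ± 0.19 and 0.63 ± 0.22 (SE), with limma adjusted p-values of 0.081 and 0.18. Without line 14846 both were called, with adjusted p-values of 0.039 for Lgmn and 0.035 for Ctss. Without line 14843 Lgmn gave 0.49, at 0.062, and Ctss 0.31, at 0.34, and without line 14844 their adjusted p-values were 0.25 and 0.42. The lysosomal proteases Ctsb and Ctsd gave -0.22 ± 0.06 and -0.20 ± 0.05, short of the threshold at adjusted p-values of 0.099 and 0.090.

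Factors that bind the X and Y boxes held 1 call, downward. All 7 were tested. Of these 0 were called higher and 1 lower, beside 1.3% and 4.93% of all tested genes, and 2 had an unadjusted p under 0.05, beside 23.8%. Their median difference was -0.12, and 0.033 without line 14843. Rfxap, a subunit of the RFX complex on the X box, fell in Tamoxifen arrays. It read 9.02, 8.94 and 9.13 on Tamoxifen arrays of lines 14843, 14844 and 14846, against 9.50, 9.46 and 9.56 on Vehicle arrays. The groups did not overlap, and the lines lay close together within each group. The fit gave -0.47 ± 0.05 (SE), at a limma adjusted p of 0.011 with the block and 0.029 without it, but of 0.10 without line 14844. Rfx5, another subunit, gave -0.23 ± 0.07 with an adjusted p of 0.13, and Rfxank, the remaining one, 0.03 ± 0.07. The class II genes themselves are described above with no call in either direction.

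Regulators upstream of Ciita and the class I pathway gave no treatment call. Of 12 other regulators of Ciita 9 were tested. Irf1, an interferon-induced activator, gave -0.24 ± 0.06 (SE) at an adjusted p of 0.093 by limma, and Irf8 0.09 ± 0.05 with one of 0.33. Of 13 class I genes 10 were tested, with a median of -0.05, and the genes with the smallest p gave -0.12 ± 0.05 for Erap1, a peptide trimming enzyme, and -0.26 ± 0.15 for Tapbp, the peptide loading factor tapasin. Of 17 interferon gamma response genes 10 were tested, with a median of 0.06. Gbp7, a guanylate-binding protein, gave 0.23 ± 0.06 with an adjusted p of 0.092. An unadjusted p under 0.05 was found for 1 of the 9 regulators, 0 of the 10 class I genes and 3 of the 10 interferon response genes, beside 23.8% of all tested genes. Irf1 counts in the first and the last of these lists.

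Among related genes outside the list of 8, lines were compared by limma's moderated F test, which called 434 genes, or 3.11% of those tested. Spib, an Ets factor of B cells and plasmacytoid dendritic cells, was high in line 14846, like H2-Aa and Cd74. It read 7.35, 7.19 and 7.92 on Tamoxifen arrays of lines 14843, 14844 and 14846, and 7.32, 7.27 and 8.33 on Vehicle arrays. Line 14846 stood 0.84 above the mean of the others, with an adjusted p of 0.030. Of the 9 tested regulators of Ciita it was the only one called between lines.

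Other class II and processing genes differed between lines in unlike ways. H2-Eb2, a further beta chain gene, read 6.39, 6.50 and 7.10 on Tamoxifen arrays of lines 14843, 14844 and 14846, and 6.32, 6.39 and 8.25 on Vehicle arrays. Its mean passed the filter on dim genes only through line 14846, so it had to differ and its value is a description. H2-Ea was below the filter, between 5.96 and 6.03, and H2-DMb1 and H2-DMb2 share a probe set that names both and cannot separate them. That probe set, not tested, read 7.47 and 7.53 in line 14846 on the Tamoxifen and Vehicle arrays, and between 7.26 and 7.38 on the others. Ifi30 was lowest in line 14846, which differed from the mean of the others by -0.83, with an F test adjusted p of 0.027. Ctsl, a protease of invariant chain cleavage in thymic epithelium, was also low there, at -1.10 with an adjusted p of 0.0063. Of the 10 tested class I genes 1 was called, Tapbp, which read 12.43 and 12.32 in line 14844 on the Tamoxifen and Vehicle arrays, and between 10.46 and 11.17 on the other arrays (adjusted p 0.019). Both arrays of line 14846 lay above the other 4 for 4 of these 10, beside 10.6% of tested genes. The same held for 3 of the 9 tested regulators of Ciita and 3 of the 10 tested interferon gamma response genes, with Socs1 in both lists. It held for 2 of the 7 tested processing genes and 0 of the 7 box-binding factors. The other 3 class I genes of the list lay only on probe sets that carry several symbols, which were not tested. On 2 such probe sets, whose class I symbols cannot be separated, both arrays of line 14846 were highest. One read 12.02 and 12.49 there on the Tamoxifen and Vehicle arrays, and between 11.14 and 11.33 on the others. The remaining one read 11.49 and 12.27 there, and between 10.51 and 10.79 on the others. Of the 7 factors of the X and Y boxes 0 were called between lines by limma, beside 3.11% of tested genes. The smallest F test p among them was that of Rfxank, 0.024 without adjustment and 0.19 with it.

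**Figure D3:**
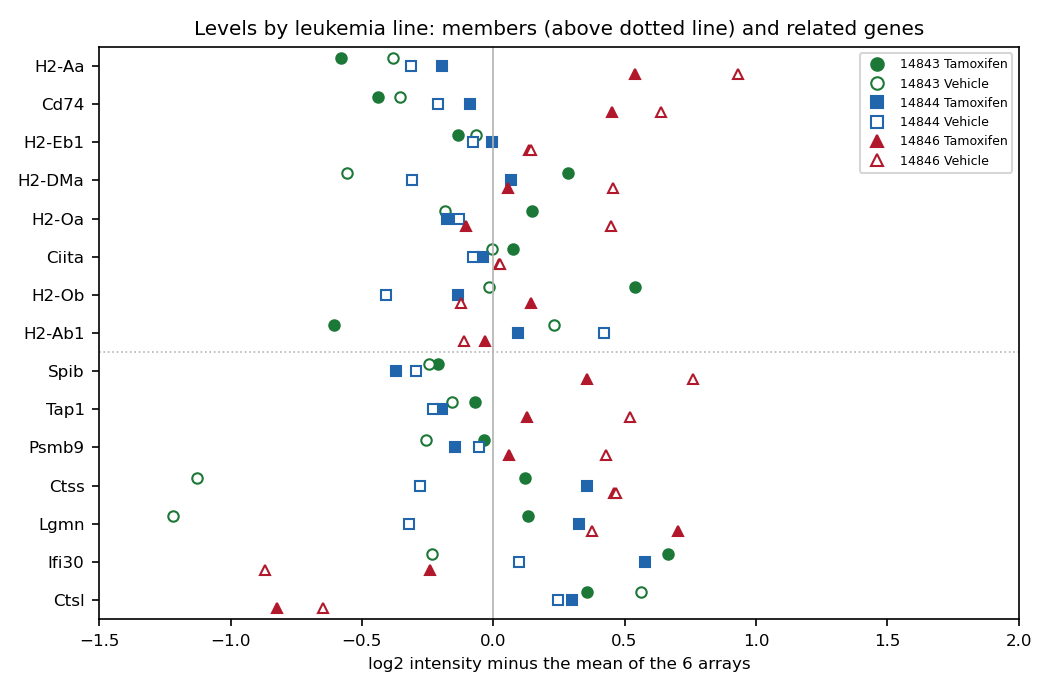
Log2 intensity minus the mean of the 6 arrays (horizontal axis) for the 8 class II genes and 7 related genes, with filled points for Tamoxifen and open points for Vehicle arrays. H2-Aa, Cd74 and Spib lie to the right in line 14846, Ifi30 and Ctsl to the left. Ciita, whose levels are close to the filter on dim genes, lies near 0 in every line.

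The genes with the most similar pattern were sought by correlation with the mean log2 level of H2-Aa, H2-Ab1, H2-Eb1 and Cd74 over the 6 arrays. That mean was 7.34, 7.74 and 8.06 on Tamoxifen arrays of lines 14843, 14844 and 14846, and 7.64, 7.74 and 8.19 on Vehicle arrays. Of 720 other tested genes whose arrays spanned at least 1 log2 unit, the 10 closest had Pearson's r from 0.94 to 0.98. They were Hsdl1, AW112010, Pctp, Fam126a, Glul, Mcoln2, Plaat3, Vdr, 9630013D21Rik and Hpgds. Vdr, the vitamin D receptor, stood 1.36 higher in line 14846 than the mean of the others, and Hpgds, a prostaglandin D synthase of blood cells, 2.45 higher. The mean they were matched to was highest in that line, so such differences follow from how the genes were chosen. The 6 arrays come from 3 leukemias and are not independent, and r of this size over so few arrays is a description alone. By rank correlation 4 of the 10 were among the closest 10. Each of the 10 had a rank correlation of 0.94 or 1, and tied genes were ordered by symbol, so that count may depend on ties.

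Markers of cells that carry class II were set beside these levels. Of 12 B cell markers 11 were measured, and 6, including Cd79a and Ms4a1, lay below 6.70 on every array. The summed linear intensity of the 11 lay between 1267 and 1369 on Tamoxifen arrays and between 1138 and 1839 on Vehicle arrays. The highest sum was the Vehicle array of line 14846. There Cd79b, a chain of the B cell receptor, read 9.56, against 8.01 and 8.30 on the other Vehicle arrays, and Blk, a Src family kinase, 8.38, against 7.15 and 7.42. On Tamoxifen arrays Cd79b lay between 8.42 and 8.66 and Blk between 7.51 and 7.56, with no line apart. Neither was called between lines, at F test adjusted p-values of 0.36 and 0.38. The other B cell markers differed among themselves. On the Vehicle array of line 14846 Cd22 read 7.20, against 6.73 on each of the other Vehicle arrays. Cd22 was not called between lines either, at an F test adjusted p of 0.40. Vpreb3, at 7.12 on that array, was below the other Vehicle arrays. Cd79a, at 5.81, was also below them, but lay under 6.70 on every array. Without Cd79b and Blk, a choice made after seeing the values, the sums were 782, 743 and 741 on Tamoxifen arrays of lines 14843, 14844 and 14846, and 739, 734 and 750 on Vehicle arrays. Leaving out the genes that rose evens the sums by itself. Of the 9 genes left 6 lay below 6.70 on every array, so these sums are a description alone.

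Monocyte and macrophage markers were measured for 20 of 21 genes, and 8, including Csf1r, Adgre1 and Cd14, lay below 6.70 on every array. Their sum was between 3417 and 3844 on Tamoxifen arrays and between 3165 and 5427 on Vehicle arrays, again highest in line 14846. Ly86, a secreted partner of the receptor Cd180 on B and myeloid cells, was the marker farthest apart in that line. It read 6.30, 6.28 and 8.90 on Tamoxifen arrays of lines 14843, 14844 and 14846, and 6.18, 6.34 and 11.20 on Vehicle arrays. Its mean passed the filter on dim genes only through line 14846, so it had to differ between lines and its values are a description. Without Ly86, a choice made after seeing the values, the sums were 3458, 3339 and 3366 on Tamoxifen arrays of lines 14843, 14844 and 14846, and 3184, 3084 and 3066 on Vehicle arrays. Itgam and Lyz2 were called between lines, at F test adjusted p-values of 0.020 and 0.036, with Itgam highest in line 14843 and Lyz2 in line 14844. Of the 11 tested markers 3, namely Ly86, Cd68 and C1qc, had both arrays of line 14846 above the other 4, beside 10.6% of tested genes. Cd68 and C1qc stood 0.21 and 0.22 above the mean of the other lines there. Neither was called between lines, at F test adjusted p-values of 0.39 and 0.23.

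Dendritic cell markers were measured for 10 of 10 genes, and 3, namely Clec9a, Cd209a and Ccl22, lay below 6.70 on every array. Their sum was between 1646 and 1959 on Tamoxifen arrays and between 1365 and 1794 on Vehicle arrays. Ccr7 was the brightest of them on every array, between 8.51 and 9.76 log2 intensity, and weighed most in that sum. Neutrophil markers, 13 of 13 measured, summed to 3840 and 2975 on the Tamoxifen and Vehicle arrays of line 14844, and to between 1985 and 2143 on the other 4 arrays. S100a8 and Ngp, proteins of neutrophil granules and cytoplasm, were called between lines, at adjusted p-values of 0.0072 and 0.027, and were highest in line 14844. Among T cell markers Gata3, a T lineage factor, was called, at 0.025, and was also highest there. Erythroid markers, 6 of 8 measured, lay between 843 and 883 on Tamoxifen arrays and between 790 and 883 on Vehicle arrays. Between treatments limma called 0 of the 5 B cell, 11 monocyte and macrophage and 7 dendritic cell markers tested. It also called 0 of the 10 neutrophil, 4 erythroid and 15 T cell markers. Over all tested genes 6.23% were called, and lists of this size would hold few calls at that share. Line 14846, where H2-Aa and Cd74 were highest, was not the highest for neutrophil markers. Among Vehicle arrays it had the highest sums for B cell, dendritic cell, and monocyte and macrophage markers, at 1839, 1794 and 5427. Among Tamoxifen arrays it had the highest of these only for monocyte and macrophage markers, at 3844. The part of other cells in the levels of H2-Aa, Cd74 and Spib was not tested.

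**Figure D4:**
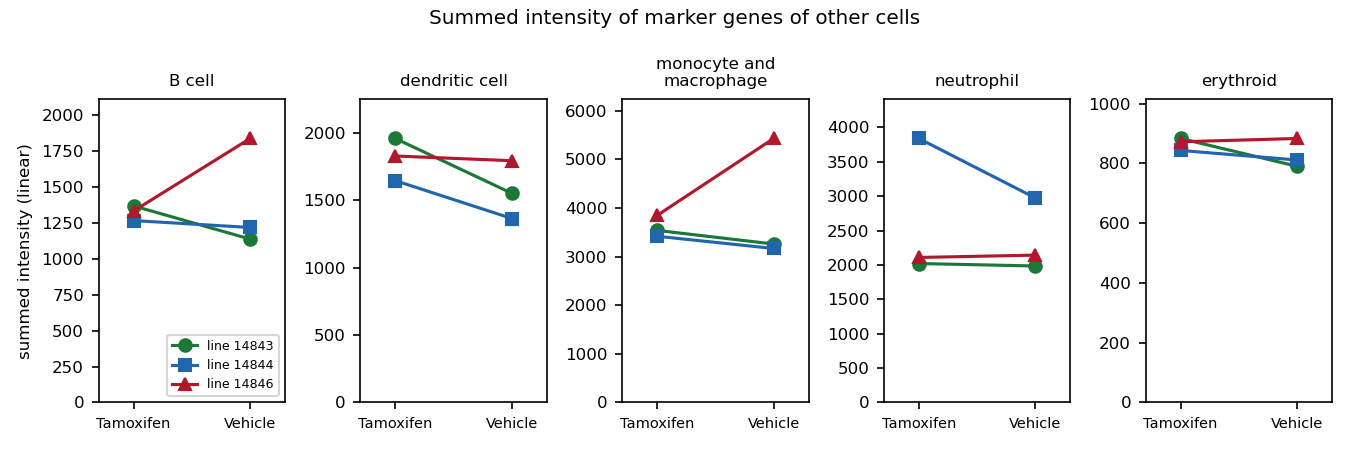
Summed linear intensity (vertical axis, from 0) of the marker genes of 5 other cell types on the Tamoxifen and Vehicle arrays of each leukemia. The Vehicle array of line 14846 stands out for B cell markers and for monocyte and macrophage markers, at 1839 and 5427. These sums are 750 without Cd79b and Blk and 3066 without Ly86, genes left out after their values were seen. Of the genes then left, 6 of 9 and 8 of 19 lay below 6.70 log2 intensity on every array. Both arrays of line 14844 stand out for neutrophil markers.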

How the data were processed

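Gene expression was measured on 6 Affymetrix arrays, 1 for each line and treatment. The deposited values are linear intensities. The submitters' processing notes name RMA and Affymetrix Expression Console 1.1 as what the authors used. RMA equalizes intensity distributions, so overall shifts between arrays are removed. Array medians lay between 202 and 208. Of 35556 probe sets, 21789 had 1 symbol in the platform annotation, 1621 had several and 12146 were unnamed here. Entrez identifiers of 21698 were found in the RefSeq table and 0 symbols changed. The highest mean probe set stood for a gene. Log2 was taken, and genes at or above the 30th percentile of mean level were tested.

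The treatment test was limma's (version 3.58.1, under R 4.3.3), using lmFit and eBayes. Line was a block, because per the series' design both treatments were given to recipients of every line. P-values cover both directions, and Benjamini-Hochberg adjustment ran over all tested genes. Each gene had 2 residual degrees of freedom, and moderation added 3.47. Lines were compared by the F test of the same fit. Steps were tested on simulated data. Precision is limited by how few arrays there were.

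The 8 genes and the lists were chosen with earlier results of these data known. Named genes were the 8, other class II chains, in each pathway list up to 4 called genes or the 2 with the smallest p, and the 10 genes of most similar pattern. Marker genes called between lines were named after their values were seen. So were Cd79b, Blk, Cd22, Cd68, C1qc, Ccr7, Lgmn, Ctss, Ctsb, Ctsd, Rfx5, Rfxank and Socs1. Alternatives were array centring, a pseudocount of 16, averaged probe sets, other filters, eBayes with trend and robust settings, no block and leaving out each line.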

Additional observations from a re-analysis of the deposited data

Results flagged for a closer look

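For 7 of the 8 class II genes the sign of the Tamoxifen minus Vehicle difference was not the same in the 3 lines. With 1 array for each line and treatment these differences between lines were not tested. The gap between the lines with the highest and the lowest difference was 1.24 on the log2 scale for H2-DMa, which was higher with Tamoxifen in lines 14843 and 14844 and lower in line 14846. It was 0.92 for H2-Ab1, lower in lines 14843 and 14844 and 0.08 higher in line 14846. It was 0.88 for H2-Oa, higher in line 14843 and lower in the others. For H2-Aa the gap was 0.51 and for Cd74 0.31, both higher in line 14844 only. For H2-Eb1 it was 0.14 and for Ciita 0.083, both near 0 in every line. Over all tested genes 48.8% had the same sign in all 3 lines.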

How the results depend on the processing

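Of the 8 class II genes 0 were called in all settings but 1: with eBayes trend and robust settings it was 1, H2-Ob. Over all genes, calls between treatments numbered 870, and 295 without the replicate block. Leaving out 1 line at a time, they ranged from 70 without line 14844, through 498 without line 14843, to 669 without line 14846. With fewer arrays each of these fits has fewer residual degrees of freedom. The count for class II processing genes was 1, but 0 without the replicate block, and from 0 without line 14844 to 3 without line 14846, where Ctss and Lgmn joined Ifi30. For the box-binding factors it was 1, and with a line left out from 0 without line 14844 to 1. Their median difference, -0.12, lay between -0.17 and 0.033 with a line left out, and that of the 8 class II genes between -0.075 and 0.040. Leaving out a line turned the sign of 5 uncalled differences. H2-Eb1 ranged from -0.039 to 0.031 and H2-DMa from -0.013 to 0.61, with the turned value without line 14843. Cd74 ranged from -0.13 to 0.019, H2-Oa from -0.30 to 0.14 and H2-Eb2 from -0.54 to 0.089, with the turned value without line 14846. Causes were not tested. With a filter at the 50th percentile 3 of the 8 were tested, since H2-Aa, H2-Ab1, Cd74, H2-Ob and Ciita fell below it. Line 14846 minus the other lines kept its sign for H2-Aa, Cd74, H2-Eb1, H2-DMa and H2-Oa in every setting run, but turned without line 14844 for Ciita, H2-Ob and H2-Ab1, at -0.01, -0.25 and 0.12. No setting took the arrays of line 14846 apart. On Tamoxifen arrays alone line 14846 was not the highest for H2-DMa or H2-Oa.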

Other observations

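In the RefSeq order of genes on chromosome 17, the interval from H2-Oa to H2-Eb1 held 11 tested genes, of which 6 were class II genes and 5 were others. The others were Brd2, a bromodomain protein of general transcription, the immunoproteasome subunits Psmb8 and Psmb9, and Tap1 and Tap2, which carry peptides for class I into the endoplasmic reticulum. By limma 0 of the 5 were called between treatments, beside 6.23% of tested genes, and 0 between lines, beside 3.11%. At an unadjusted p under 0.05 there were 0 between treatments, beside 23.8% of tested genes. The smallest F test p between lines was that of Tap1, 0.014 without adjustment and 0.15 with it. Both arrays of line 14846 lay above the other 4 for 2 of the 5, Tap1 and Psmb9, beside 10.6% of tested genes. Tap1 stood 0.49 above the mean of the other lines there and Psmb9 0.37, while Brd2 stood 0.02 above it. Beside the 6 class II genes of the interval, values of line 14846 minus the others thus ranged from -0.11 for H2-Ab1 to 1.10 for H2-Aa.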
